A study of Mus musculus with 54 samples.

Results

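The genes described here are 10 members of the hypoxia-inducible factor (HIF) pathway. Hif1a, Epas1, Arnt, Vhl and Egln1 build or restrain the factor, and Egln3, Vegfa, Slc2a1, Bhlhe40 and Adm are classical targets that it switches on. They were chosen by the symbol of each Ensembl gene. The rule holds no measured value, but earlier results of these data were known when the members and the further lists were chosen. All 10 members were found among the 54232 genes listed in the deposited counts. All 10 passed the filter on low counts in every fit.

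HIF is a DNA-binding dimer of an oxygen-sensitive alpha subunit, made from Hif1a or Epas1, and the stable partner ARNT. While oxygen is plentiful, prolyl hydroxylases of the Egln family mark the alpha subunit and the VHL protein hands it over for destruction, and when oxygen falls the surviving dimer binds near genes for glycolysis, vessel growth and red cell production. Because the factor is controlled mostly through protein stability, the mRNA of its targets is the usual readout of its activity, with erythropoietin from the kidney as the best known one.

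RNA was sequenced from kidney, brain and heart of male BL6 mice aged 20 months, and from the brain of male APPSWE-1349 mice and their littermates. The series design puts this second cohort at 6 to 7 months, while the growth protocol on its labels puts it at 20 months, and the design was followed. Cmpd60, an inhibitor of the histone deacetylases HDAC1 and HDAC2, was injected into the abdomen once a day for 14 days at 22.5 mg/kg, and control mice received only its solvent of DMSO, PEG400 and saline. The comparisons address whether classical hypoxia targets move with this compound in each of the 4 settings, the aged kidney, brain and heart and the APPSWE cohort. The kidney groups follow the sample titles, which the treatment field of the same labels contradicts in all 11 kidneys. If the field is right, every kidney difference between Cmpd60 and vehicle given below takes the other sign.

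The 20 month groups, naturally aged mice with no transgene named, held 6 Cmpd60 and 5 vehicle kidneys, 6 Cmpd60 and 6 vehicle brains, and 5 Cmpd60 and 6 vehicle hearts. APPSWE-1349 mice carry a transgene for a human amyloid precursor protein with the Swedish mutation, on a BL6 background. No measure of amyloid or of memory is among the values used here. That cohort held 5 vehicle and 4 Cmpd60 transgenic brains, and 5 vehicle and 5 Cmpd60 littermate brains, and library s139 was left out because its sources disagree on its treatment. All mice were housed singly, and the labels do not tell which tissues came from the same mouse. The series design names 6 Cmpd60 and 7 vehicle aged mice, so the 34 aged libraries share mice, and the fits over several tissues treat them as independent.

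Each of the 54 libraries held between 23584609 and 57430113 counts on genes, with a median of 28114298. Levels are given as CPM, the counts of a gene divided by the size of its library in units of 1 M counts, with library sizes scaled by the TMM method within each fit, and in the shallowest library a count of 0 allowed up to 0.127 CPM. Differences were tested with edgeR's quasi-likelihood test, and a gene is called when its p-value after Benjamini-Hochberg adjustment over all genes tested is under 0.05. Tissue identity was checked on marker genes in the vehicle mice. The sum of 8 proximal tubule genes was 21399.8 CPM in kidney against 29.03 in brain and 8.47 in heart, the sum of 7 neuron genes was 5947 CPM in brain against 2.32 in kidney and 66.9 in heart, and the sum of 8 cardiomyocyte genes was 62239 CPM in heart against 8.51 in kidney and 233 in brain, each on the scale of its own tissue.

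At baseline, most members differed between the 3 aged organs. On the joint scale of all 34 aged libraries the heart had the highest level of the oxygen sensor Egln1, the HIF-2 subunit Epas1 and the targets Egln3, Vegfa and Adm, the kidney led for Hif1a, and the brain led for Vhl and the glucose carrier Slc2a1. Between vehicle-treated mice, edgeR's quasi-likelihood test called 8 of the 10 members for kidney against brain, where 72.5% of all 27105 genes were called, 9 for kidney against heart (56.7% of all genes) and 9 for heart against brain (72.1% of all genes). Such shares show that most genes differ between organs, so the members' counts are a description of levels.

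Among the regulators, Egln1, whose protein is the main hydroxylase that senses oxygen, stood at 550.0 to 654 CPM in the 6 vehicle hearts (median 626) on the scale of all 34 aged libraries. In kidney it lay between 70.5 and 80.2 CPM and in brain between 70.4 and 79.2 CPM. The hearts were far above the other organs, while kidney and brain overlapped. The log2 fold change of kidney against heart was -3.02 (adjusted p = 2.90e-30 in edgeR's quasi-likelihood test, standard error, SE, 0.06), with 5 of 5 kidneys below every heart. Kidney against brain gave 0.02 (95% interval -0.09 to 0.14), a difference not called, whose sign turned with DESeq2's size factors (-0.11).

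Epas1, the alpha subunit typical of endothelium and of the cells that make erythropoietin, averaged 561 CPM in heart, 246 in kidney and 148.8 in brain on the joint scale, and the 3 organs did not overlap. Hif1a, the widely expressed alpha subunit, averaged 102 CPM in kidney, 81.0 in heart and 72.2 in brain, while on the scale of each tissue's own fit the heart (64.3 CPM) was under the brain (86.0 CPM). The step from heart to brain was small for Hif1a, at a log2 fold change of 0.17 (adjusted p = 0.0299 in edgeR's quasi-likelihood test, SE 0.07), with 4 of 6 hearts above every brain and 1 below. That call was lost with DESeq2's size factors and without vehicle brain 29 or 31 or vehicle heart 63 or 67, at adjusted p-values of 0.0516 to 0.178, within a range of 0.00594 to 0.178 over 15 alternatives. With those size factors the log2 fold change was 0.10, and the median over all genes for kidney against brain moved from -0.24 to -0.37.

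Arnt, the shared partner of both alpha subunits, followed the order heart (66.5 CPM), kidney (49.3 CPM) and brain (32.2 CPM), with no overlap between organs on the joint scale. On the scale of each tissue's own fit heart (47.2 to 56.2 CPM), kidney (48.5 to 56.5 CPM) and brain (32.8 to 49.4 CPM) overlapped, so the separation of the organs by Arnt depends on the scaling. Vhl, which makes the recognition part of the ligase that removes the alpha subunit, ran the other way, at 33.9 CPM in brain, 21.6 CPM in kidney and 12.2 CPM in heart. All of these Arnt and Vhl steps were called, with 5 of 5 kidneys or 6 of 6 hearts on 1 side of every library of the other organ on the joint scale.

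Of the targets, all but Bhlhe40 differed between each pair of organs. Egln3 (ENSMUSG00000035105), a hydroxylase that HIF itself induces, averaged 75.6 CPM in heart, 20.9 in kidney and 10.7 in brain, and Adm (ENSMUSG00000030790), which makes the vessel-widening peptide adrenomedullin, averaged 14.5, 5.21 and 2.40 CPM in the same order. Vegfa, the vascular growth factor, averaged 237 CPM in heart, 131 in kidney and 61.0 in brain. Slc2a1, the glucose carrier of the blood-brain barrier, went from 91.7 CPM in brain to 61.1 in kidney and 24.2 in heart. Bhlhe40, a repressor that answers to hypoxia and to the body clock, was at 88.5, 81.1 and 81.1 CPM in kidney, brain and heart (93.5, 96.6 and 64.3 CPM on the scale of each tissue's own fit), and none of its differences was called. For Bhlhe40 the interval of the log2 difference ran from -0.14 to 0.39 for kidney against brain and from -0.25 to 0.25 for heart against brain, and with DESeq2's size factors the estimates turned to -0.01 and -0.07. With the kidney groups taken from the treatment field, a choice made after seeing the data, Bhlhe40 was called at 0.54 against brain (adjusted p = 0.000233 in edgeR's quasi-likelihood test) and at 0.54 against heart (0.000330). The members called were then 9 for kidney against brain (74.6% of all genes) and 10 for kidney against heart (58.5%).

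**Figure D1:**
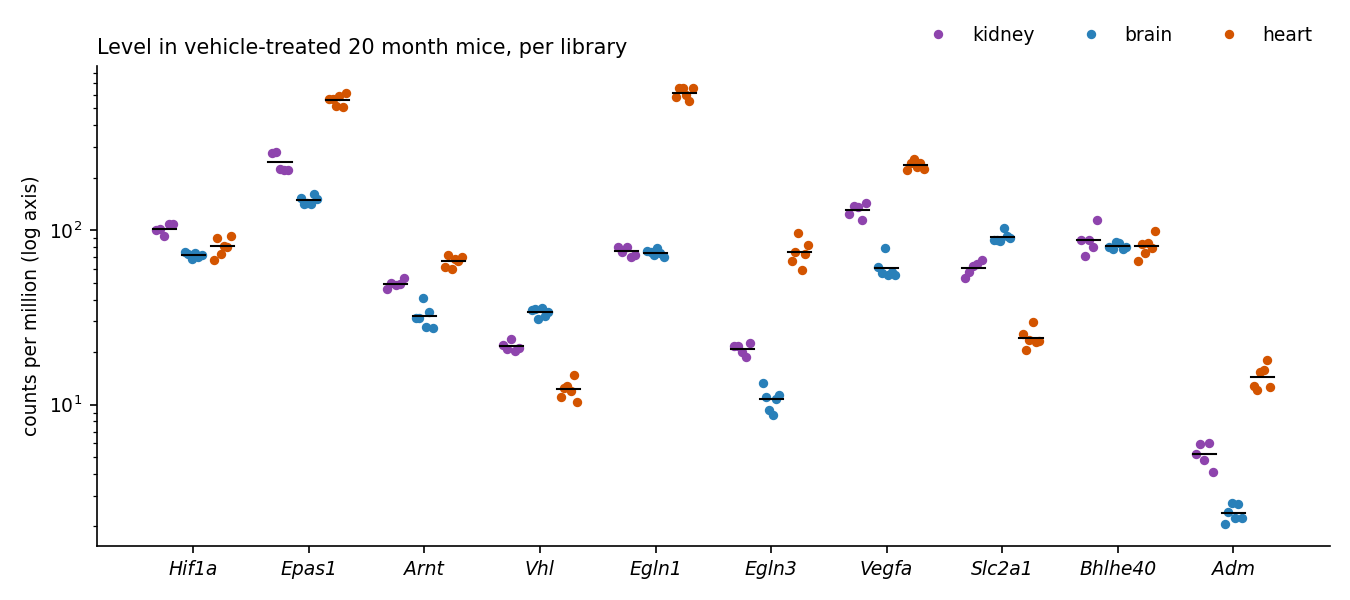
Level of each member in the vehicle-treated mice aged 20 months, 1 point per library and a bar at the group mean, in CPM on a log axis, scaled over all 34 aged libraries. Egln1 averages 615 in heart against 75.6 in kidney and 74.4 in brain, and Slc2a1 averages 91.7 in brain against 24.2 in heart.

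In the aged kidney, with groups by the sample titles, the estimates of all 5 targets were above 0 and those of the regulators were near or under 0. Adm was higher in each treated kidney than in any control kidney, Vegfa and Egln3 were above all controls in most, and the genes that build or restrain HIF stayed near their control levels. No member was called after adjustment over all genes. Outside the members, the glycolytic enzyme gene Eno1 and the red cell hormone gene Epo had the smallest p-values of 70 further pathway genes.

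By edgeR's quasi-likelihood test, 0 of the 10 members were called in the kidney, where 0.3% of all 20698 genes were called. At an unadjusted p-value under 0.05 there were 4 members, all higher (11.3% of all genes), and the groups did not overlap for 1 member (2.3% of all genes). limma-voom called 0 members (0.338% of all genes) and the DESeq2 Wald test called 1, which was Adm (2.07% of all genes). With the groups taken from the treatment field, a choice made after seeing the data, the p-values stayed and the signs turned, to -0.54 for Adm, -0.41 for Bhlhe40, -0.25 for Vegfa, -0.24 for Egln3, -0.15 for Slc2a1, -4.77 for Epo and -0.51 for Eno1. The number of all genes called was 62, and it was 20 without vehicle kidney 46 or 47, 28 without vehicle kidney 49, 31 to 33 without vehicle kidney 45 or treated kidney 50 or 51, and 131 without treated kidney 52. It was also higher with no filter, and much higher in the fit of all 34 aged libraries.

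The regulators differed little between the groups. Hif1a lay between 95.1 and 114 CPM in the treated kidneys (median 105) and between 98.2 and 115 CPM in the controls, and its log2 fold change of -0.05 had a 95% interval of -0.22 to 0.12. Epas1 ranged more widely, from 175 to 314 CPM in treated kidneys and from 235 to 298 CPM in controls, with an interval of -0.28 to 0.28 around a difference of 0.00134. Its lowest value was in treated kidney 55, and without that library the estimate was 0.10. For Arnt the interval was -0.17 to 0.13 and for Egln1 it was -0.18 to 0.13. Vhl had the lowest estimate of the 10 members, -0.14 (95% interval -0.35 to 0.06), with 4 of 6 treated kidneys below every control, and it was -0.09 without treated kidney 55.

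Adm stood in the 6 treated kidneys at 7.59, 8.84, 6.69, 9.32, 6.82 and 8.82 CPM (libraries 50 to 55) and in the 5 controls at 5.47, 6.30, 5.04, 6.40 and 4.35 CPM (libraries 45 to 49). The groups did not overlap, although the lowest treated kidney, 52, and the highest control, 48, were close together. On the log2 scale the difference was 0.54 (adjusted p = 0.171 in edgeR's quasi-likelihood test, SE 0.15), with 6 of 6 treated kidneys above every control. DESeq2's Wald test called it at an adjusted p of 0.0239, within a range of 0.0239 to 0.373 over 19 alternatives.

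Bhlhe40 ranged from 96.9 to 167 CPM with Cmpd60 (median 121) and from 75.4 to 121 CPM without, and treated kidney 50 was highest. Its log2 fold change was 0.41 (adjusted p = 0.286 in edgeR's quasi-likelihood test, SE 0.15), with 3 of 6 treated kidneys above every control. Vegfa lay between 132 and 194 CPM (median 165) against 122 to 151.2 CPM in controls, a log2 fold change of 0.25 (95% interval 0.02 to 0.48), and 4 of 6 treated kidneys exceeded every control. Egln3 lay between 21.3 and 32.5 CPM (median 25.9) against 19.9 to 23.8 CPM, a log2 fold change of 0.24 (95% interval 0.02 to 0.46), with 5 of 6 above every control. Treated kidney 51 was the highest library for both Vegfa and Egln3. Slc2a1 gave 0.15 (95% interval -0.05 to 0.35), and treated kidney 55 was its highest library at 87.0 CPM, without which it was 0.09.

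Epo, the hormone that drives red cell production and the gene through which HIF was discovered, was almost silent in the control kidneys. Their raw counts were 6, 1, 3, 2 and 0, a sum of 12 in 5 libraries, while the treated kidneys had 36, 277, 7, 44, 5 and 19, a sum of 388 in 6 libraries. On the CPM scale this was 0.987, 10.4, 0.272, 1.63, 0.142 and 0.637 against 0.187, 0.0346, 0.115, 0.0790 and 0. Treated kidney 51 held most of the counts, treated kidney 54 lay within the control range, and the other 5 treated kidneys were above every control. This gave a log2 fold change of 4.77 (95% interval 2.32 to 7.22, adjusted p = 0.108 in edgeR's quasi-likelihood test, SE 1.15), and it was 3.098 without kidney 51. The call was made by DESeq2's Wald test, at an adjusted p of 0.00443, and in a fit of all 34 aged libraries, at 0.0162, within a range of 0.00443 to 0.326 over 19 alternatives. In the brain and heart all 23 libraries held 0 counts of Epo, so no fold change could be given there.

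Eno1, the gene of the glycolytic enzyme enolase, stood at 1222 CPM in treated kidney 50, 1510.5 in 51, 1214 in 52, 969 in 53, 973 in 54 and 1286 in 55. The controls were at 808, 861, 758, 877 and 897 CPM. Every treated kidney lay above every control, and kidneys 53 and 54 were the treated libraries nearest to them. Its log2 difference came to 0.51 (adjusted p = 0.108 in edgeR's quasi-likelihood test, SE 0.12), and the adjusted p ranged from 0.00108 to 0.284 over 19 alternatives, with a call by DESeq2's Wald test (0.00225) and in the fit of all 34 aged libraries (0.00108).

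The further pathway genes were read as 4 lists by role. Of 20 glucose and glycolysis genes, 16 were higher with Cmpd60 in the kidney, 7 of them at an unadjusted p-value under 0.05 (35% of the list, against 11.3% of all genes), and their median log2 fold change was 0.18, beside a median of -0.000118 over all genes tested. Vascular and haem genes (12 tested of 13) had a median of 0.15 with 8 higher, 1 at that level (8.33% of the list). The 25 stress, matrix and mitochondrial genes had a median of 0.12 with 17 higher, 4 at that level (16%). The 13 further HIF subunits and regulators had a median of -0.06, with 9 lower, and 1 higher and 1 lower at that level (15.4%). Of all genes tested, 49.98% were higher. Over all 70 genes of these lists, 45 were higher, 13 were higher and 1 lower at an unadjusted p-value under 0.05 (20% of them, against 11.3% of all genes), 0 were called by edgeR (0.3% of all genes), and the median was 0.12, or 0.06 without treated kidney 51.

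Cell markers were read in the same kidneys, and no gene of the lists given here was called. Of 8 proximal tubule genes 6 had estimates that were lower with Cmpd60, and their sum was 18375, 15392, 20486, 17309.7, 15143 and 9937 CPM in treated kidneys 50 to 55 against 19675, 21162, 25297, 19042 and 21823 CPM in the controls, with Kap as the most abundant gene. At an unadjusted p-value under 0.05, 3 of the proximal tubule genes were lower and 0 higher (37.5% of the list, against 11.3% of all genes). For 1 proximal tubule gene the groups did not overlap (2.3% of all genes). The sum of 5 thick ascending limb genes (3 of 5 lower), led by Umod, averaged 7407 CPM against 8755 CPM, with treated kidney 55 lowest at 4253 CPM. In that list 1 gene was lower at an unadjusted p-value under 0.05, and for 1 gene the groups did not overlap. In bulk tissue, fewer cells of a type and less RNA per cell cannot be told apart. Endothelial genes (7 of 10 higher) summed to 421 against 405 CPM, mural genes (6 of 9 higher) to 426 against 404, podocyte genes (4 of 6 higher) to 584 against 586, collecting duct genes (4 of 5 lower) to 494 against 531, macrophage genes (8 of 8 higher) to 254 against 224, red cell genes (3 of 3 higher) to 434 against 332, and body clock genes (7 of 9 higher) to 758 against 691. The part of these marker values in the values of the pathway genes was not tested.

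**Figure D2:**
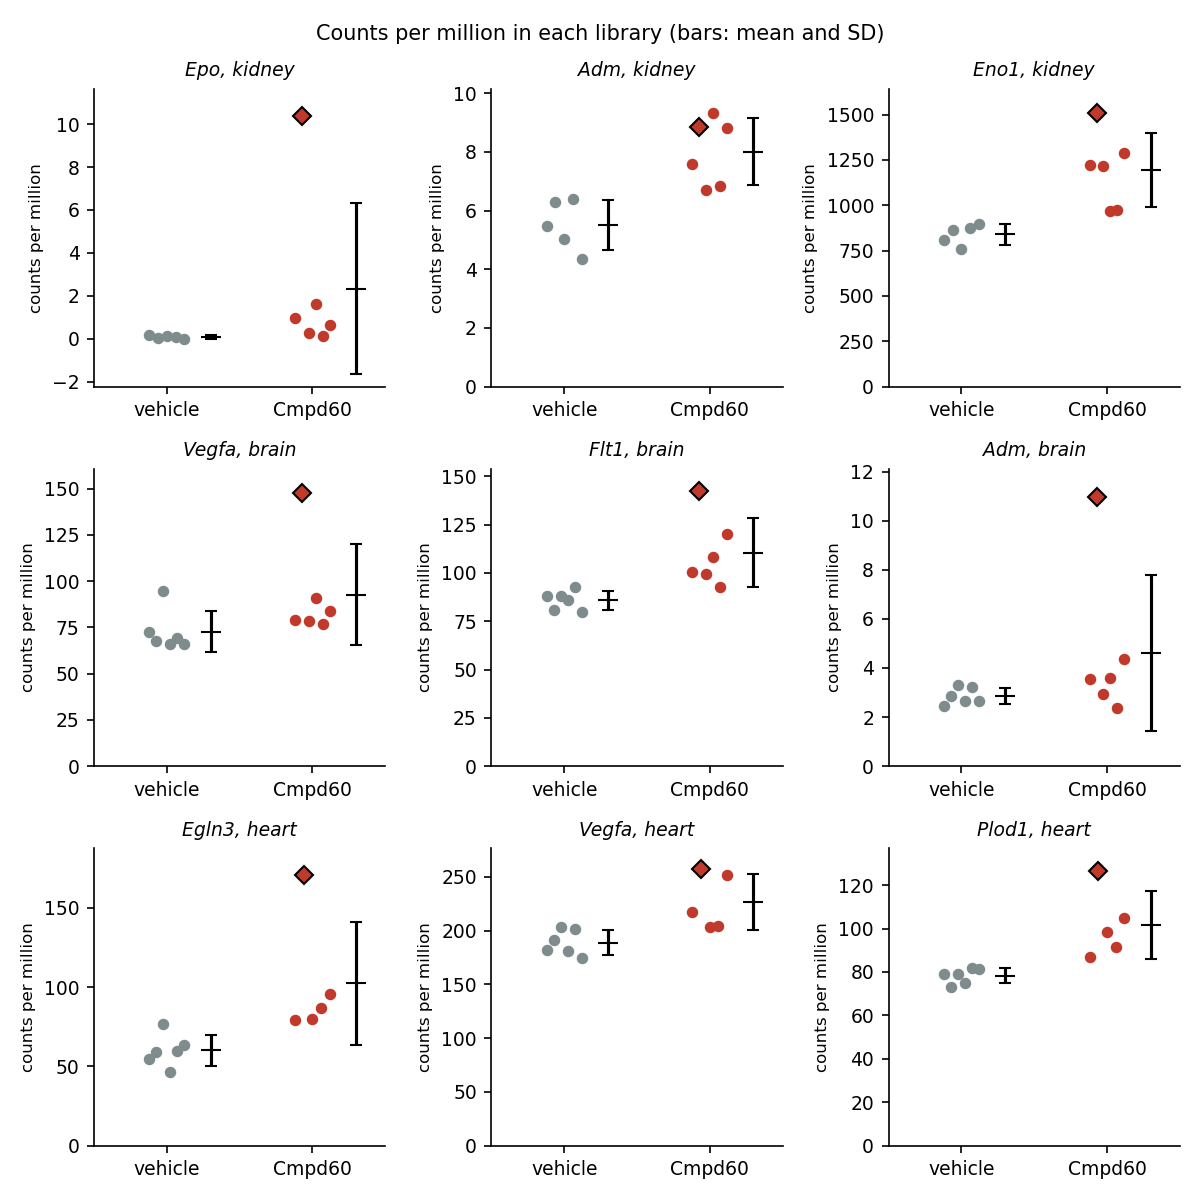
Levels in CPM of 9 gene and tissue pairs in each library, with bars for the mean and SD of each group, and a diamond with a black edge for treated kidney 51, treated brain 34 and treated heart 69. Adm in kidney, Eno1 in kidney, Flt1 in brain, and Egln3 and Plod1 in heart show no overlap between groups.

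In the aged brain, Vegfa, Slc2a1, Adm, Bhlhe40, Epas1 and Arnt had higher estimates with Cmpd60, while Hif1a, Egln1, Vhl and Egln3 had estimates at or slightly under 0. No member was called, and a single treated brain, 34, carried much of the Vegfa and Adm difference. Among further pathway genes, the VEGF receptor gene Flt1 was higher in each treated brain than in any control.

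edgeR's quasi-likelihood test called 0 of the 10 members in the brain, where it called 0.0205% of all 24438 genes, and limma-voom (0.00818% of all genes) and the DESeq2 Wald test (1.76%) called 0 members as well. At an unadjusted p-value under 0.05 there were 5 members, all higher (13.8% of all genes), and for 0 members were the groups free of overlap (0.925% of all genes). The number of all genes called was 5, and it was 372 without vehicle brain 29, 36 without treated brain 36, 8 without treated brain 38 and 1 to 3 without any of the other 9 libraries. It was also higher with no filter or with thinned counts, and 0 in the fit of all 34 aged libraries.

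Vegfa was at 79.0, 147, 78.2, 90.8, 77.0 and 83.7 CPM in treated brains 33 to 38 (median 81.3) and at 72.4, 67.6, 94.8, 66.2, 69.3 and 66.02 CPM in control brains 27 to 32 (median 68.4). Treated brain 34 stood far above its group and control brain 29 above its own, and apart from control brain 29 the groups did not overlap. As a log2 fold change this was 0.35 (adjusted p = 0.280 in edgeR's quasi-likelihood test, SE 0.14), with 1 of 6 treated brains above every control. It was 0.17 without brain 34 and 0.44 without brain 29.

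Adm, a low-abundance transcript in brain, was at 3.54, 10.96, 2.94, 3.60, 2.35 and 4.37 CPM in the treated brains and between 2.44 and 3.29 CPM in the controls (median 2.77). Treated brain 34 was again the high library, and treated brain 37 lay below every control. On the log2 scale the difference was 0.68 (95% interval 0.09 to 1.27, adjusted p = 0.298 in edgeR's quasi-likelihood test) and 0.24 without brain 34, with 4 of 6 treated brains above every control.

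Slc2a1, which at the blood-brain barrier feeds glucose to the tissue, lay between 109 and 154.7 CPM in treated brains (median 119.7) and between 104 and 123 CPM in controls (median 106). This gave a log2 fold change of 0.21 (95% interval 0.06 to 0.37, adjusted p = 0.239 in edgeR's quasi-likelihood test), and only treated brains 34 and 38 exceeded every control. Bhlhe40 had 5 of 6 treated brains above every control and 1, brain 35, below all of them, with a log2 fold change of 0.18 (95% interval 0.03 to 0.33). Epas1 was at 183 to 199.96 CPM against 166 to 194 CPM, a log2 fold change of 0.12 (95% interval 0.02 to 0.22).

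The other regulators stayed within narrow intervals in brain. Hif1a had a log2 fold change of -0.01 (95% interval -0.11 to 0.08), Egln1 of -0.03 (-0.13 to 0.06) and Vhl of -0.05 (-0.17 to 0.06). Arnt was at 40.4 to 46.4 CPM against 32.8 to 49.4 CPM, a log2 fold change of 0.16 (-0.01 to 0.33), and control brain 29 was its highest library, without which it was 0.25. Egln3, the member called in heart, was at 10.4 to 13.6 CPM against 10.4 to 15.6 CPM in brain, with a log2 fold change of -0.10 (-0.30 to 0.10).

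Flt1, the gene of a VEGF receptor on endothelium, was at 101, 142.2, 99.5, 108, 92.8 and 120.0 CPM in treated brains 33 to 38 and at 87.9, 80.6, 88.0, 85.9, 92.8 and 79.9 CPM in control brains 27 to 32. The groups did not overlap, though treated brain 37 and control brain 31 nearly touched. Its log2 difference came to 0.36 (adjusted p = 0.106 in edgeR's quasi-likelihood test, SE 0.08), with 6 of 6 treated brains above every control. It was called by DESeq2's Wald test (adjusted p = 0.0107), without the filter on low counts (0.0340) and without control brain 29 (0.0467), within a range of 0.0107 to 0.367 over 19 alternatives. P4ha1, which makes a collagen prolyl hydroxylase, had a log2 fold change of 0.20 (adjusted p = 0.167 in edgeR's quasi-likelihood test, SE 0.06), with 3 of 6 treated brains above every control, and was called only without control brain 29 (0.0438, in a range of 0.0438 to 0.781 over 19 alternatives).

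Of the 70 further pathway genes tested in brain, 49 were higher with Cmpd60, 10 were higher and 1 lower at an unadjusted p-value under 0.05 (15.7% of them, against 13.8% of all genes), and 0 were called by edgeR (0.0205% of all genes). Their median log2 fold change was 0.05, beside 0.01 over all genes tested. The vascular and haem list had the highest median, 0.18 with 10 of 12 genes higher. The stress and matrix list followed at 0.09 with 20 of 25 higher, then glycolysis at 0.03 with 14 of 20 higher. The regulators were at -0.03 with 5 of 13 higher. The highest glycolysis estimate, 0.99, was that of Gapdh, which had few counts. It averaged 13.9 CPM in treated and 7.03 CPM in control brains, where Aldoa averaged 1487 and 1470 CPM.

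Cell markers in the same brains held no called gene in the lists given here. Of 10 endothelial genes 9 had higher estimates with Cmpd60, 4 of them at an unadjusted p-value under 0.05 (13.8% of all genes), and their sum, led by Cldn5, was 150.6, 202, 161, 181, 160 and 178 CPM in treated brains 33 to 38 against 157, 159, 153.5, 171, 164 and 147 CPM in the controls, so treated brain 34 was again highest. Mural genes summed to 231 against 217 CPM (7 of 9 higher, 3 at an unadjusted p-value under 0.05), neuron genes to 6464 against 5947 (5 of 7 higher, with 4 higher and 1 lower at an unadjusted p-value under 0.05), astrocyte genes to 3603 against 3330.2 (4 of 6 higher), oligodendrocyte genes to 6819 against 7015 (4 of 6 lower), choroid plexus genes to 597 against 684 (3 of 6 higher), microglial genes to 257 against 254 (3 of 8 higher) and red cell genes to 103 against 91.0 (3 of 3 higher). All 9 body clock genes were higher, 6 of them at an unadjusted p-value under 0.05 (13.8% of all genes), with sums of 1058 against 915 CPM. Their part in the pathway genes was not tested, and the treated brains were sequenced more deeply, with 29646412 to 57430113 counts against 26402957 to 32344641.

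In the aged heart, 1 member was called. Egln3, the hydroxylase gene that HIF induces as part of its own feedback, rose with Cmpd60, and Vegfa came next without passing the threshold. The matrix enzyme gene Plod1 and the mitochondrial kinase gene Ak4, both known hypoxia targets, rose as well. Each of these calls was close to the threshold and depended on single libraries.

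By edgeR's quasi-likelihood test, 1 of the 10 members was called in the heart, where 1.18% of all 19452 genes were called. limma-voom called 1 member (1.26% of all genes), and the DESeq2 Wald test called 2, Egln3 and Vegfa (3.84% of all genes). At an unadjusted p-value under 0.05 there were 3 members, all higher (13.5% of all genes), and the groups did not overlap for 1 member (2.69% of all genes). The number of all genes called was 229, and it was 36 without treated heart 72, 73 without treated heart 69, 80 without vehicle heart 63 or 64, 81 without 67 and 125 without 65.

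Egln3 was at 79.1, 171, 79.6, 86.5 and 95.7 CPM in treated hearts 68 to 72 and at 54.5, 59.1, 76.5, 46.5, 60.0 and 63.6 CPM in control hearts 62 to 67. Treated heart 69 stood far above the others, and the lowest treated hearts, 68 and 70, lay just above the highest control, 64. As a log2 fold change this was 0.77 (95% interval 0.40 to 1.14, adjusted p = 0.0446 in edgeR's quasi-likelihood test, SE 0.18), with 5 of 5 treated hearts above every control. The estimate was 0.51 without heart 69. The call was lost without treated heart 69 (adjusted p = 0.0609) or 72 (0.106), or without control heart 62 (0.0727), 63 (0.0995), 64 (0.0513), 65 (0.0863), 66 (0.0734) or 67 (0.0836), and over 18 alternatives the adjusted p ranged from 0.00316 to 0.106.

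Vegfa was at 217, 257, 203, 205 and 252 CPM in the treated hearts and between 174 and 203 CPM in the controls (median 186). Treated hearts 69 and 72 were the high libraries, and treated heart 70 fell just within the control range. On the log2 scale the difference was 0.26 (adjusted p = 0.0984 in edgeR's quasi-likelihood test, SE 0.07), with 4 of 5 treated hearts above every control, and DESeq2's Wald test called it at 0.0242, in a range of 0.0242 to 0.297 over 18 alternatives.

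Bhlhe40 was at 59.6 to 110.1 CPM with Cmpd60 and 54.3 to 76.3 CPM without, a log2 fold change of 0.29 (95% interval 0.03 to 0.55), and treated heart 69 alone exceeded every control. Without that heart it was 0.14. Adm gave 0.25 (95% interval -0.07 to 0.56), or 0.16 without heart 69, and Slc2a1 gave 0.05 (-0.19 to 0.28), the latter turning to -0.04 without heart 69. Of the regulators, Arnt had the highest estimate, 0.13 (-0.00493 to 0.27), Hif1a gave 0.09 (-0.08 to 0.25), Vhl 0.08 (-0.15 to 0.31), Epas1 0.02 (-0.11 to 0.15) and Egln1 -0.02 (-0.13 to 0.09). Egln1 was tight in both groups, at 467 to 499 CPM in treated hearts and 454 to 516 CPM in controls.

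Plod1, which makes an enzyme that prepares collagen for cross-linking, was at 86.9, 127, 98.2, 91.6 and 105 CPM in treated hearts 68 to 72 and between 73.0 and 81.8 CPM in the controls (median 79.0). All 5 treated hearts lay above every control, with heart 69 highest. This gave a log2 fold change of 0.38 (adjusted p = 0.0401 in edgeR's quasi-likelihood test, SE 0.08), and the call was lost without treated heart 69 (0.0856), 70 (0.0552) or 72 (0.113), or without any of the control hearts 62 to 67 (0.0566 to 0.0984), in a range of 0.00174 to 0.113 over 18 alternatives. Ak4, whose product is an adenylate kinase of the mitochondrial matrix, was at 43.4, 53.5, 44.0, 38.1 and 49.0 CPM against 32.02 to 38.7 CPM (median 34.3). Only treated heart 71 fell within the control range. Its log2 fold change was 0.38 (adjusted p = 0.0446 in edgeR's quasi-likelihood test, SE 0.09), and the call was lost in the fit of all 34 aged libraries (0.295), without treated heart 68 (0.0510), 69 (0.126), 70 (0.0602) or 72 (0.128), and without any of the control hearts 62 to 67 (0.0591 to 0.0871), in a range of 0.00299 to 0.295 over 18 alternatives.

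Over the 69 further pathway genes tested in heart, 43 were higher with Cmpd60, 2 were called up and 0 called down by edgeR (1.18% of all genes), and the median log2 fold change was 0.07, beside -0.00143 over all genes tested. At an unadjusted p-value under 0.05, 9 were higher and 4 lower (18.8% of them, against 13.5% of all genes). The vascular and haem list had a median of 0.20 (9 of 11 higher), which was 0.03 without treated heart 69. The stress and matrix list had 0.09 (19 of 25 higher), glycolysis 0.08 (12 of 20 higher) and the regulators -0.11 (10 of 13 lower). The highest glycolysis estimate, 1.19, was that of Gapdh, which had few counts. It averaged 7.55 CPM in treated and 3.32 CPM in control hearts, where Aldoa averaged 2201 and 2315 CPM. Endothelial genes summed to 842, 990.2, 887, 858 and 883 CPM in treated hearts 68 to 72, led by Pecam1, against 732 to 867 CPM in the controls, with 9 of 10 genes higher. Cardiomyocyte genes summed to 62178 against 62239 CPM (6 of 8 higher), mural genes to 1663 against 1717 (6 of 9 higher), macrophage genes to 212 against 184 (7 of 8 higher), red cell genes to 1105 against 931 (3 of 3 higher) and clock genes to 601 against 533 (7 of 9 higher). At an unadjusted p-value under 0.05, 4 endothelial genes were higher (40% of the list, against 13.5% of all genes). At the same level 2 mural genes were higher and 1 lower, and 2 macrophage genes were higher. The groups did not overlap for the mural gene Higd1b (2.69% of all genes). Whether these marker values, none with a called gene, had a part in the Egln3, Plod1 or Ak4 values was not tested.

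**Figure D3:**
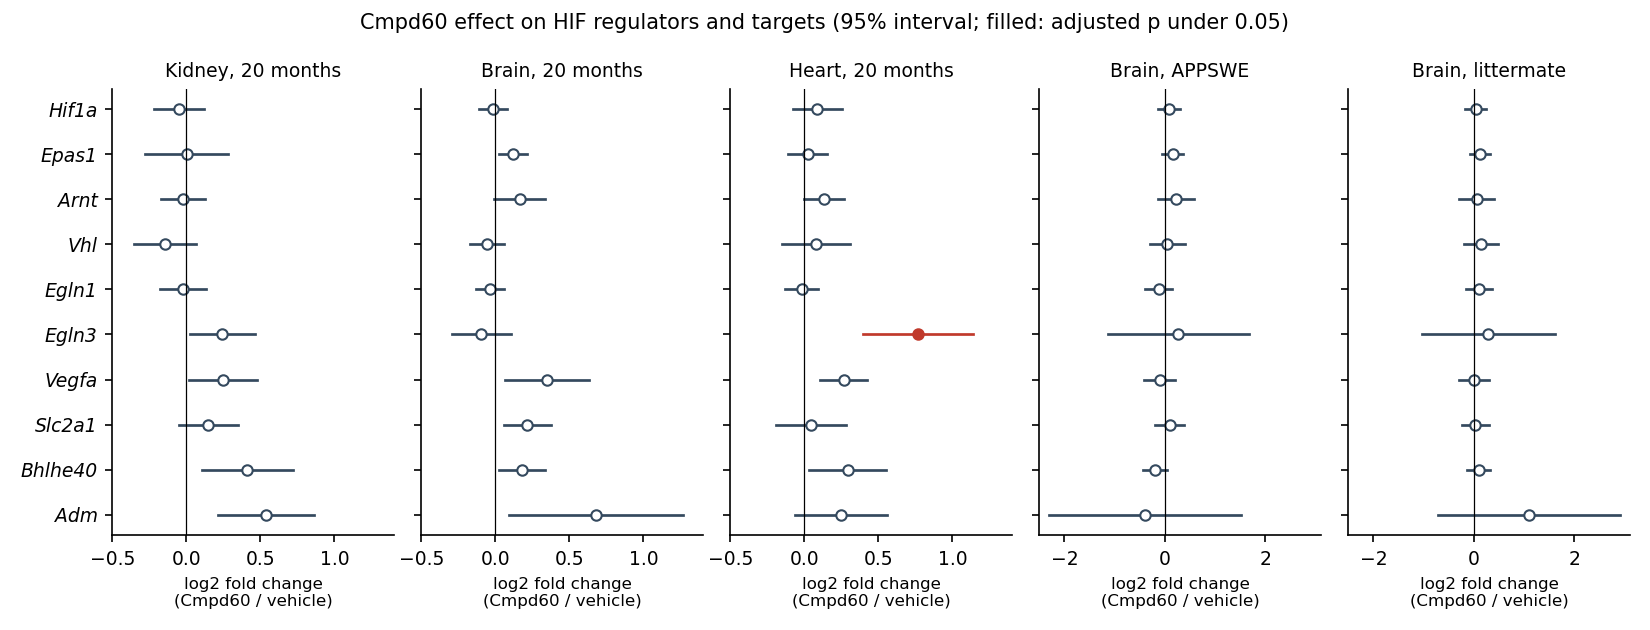
Log2 fold change of each member, Cmpd60 over vehicle, in the 3 aged tissues and the 2 genotypes of the APPSWE cohort, as points with 95% intervals, filled where the adjusted p-value is under 0.05. Egln3 in heart, at 0.77, is the filled point, and the last 2 panels have a wider axis.

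Whether the response differed between tissues was tested as a difference of responses in a fit of all 34 aged libraries, which takes no account of tissues from the same mouse. edgeR's quasi-likelihood test called 0 of the 10 members for kidney against brain (0.0885% of all 27105 genes called), 0 for kidney against heart (0.35%) and 0 for heart against brain (0.0517%), and limma-voom called 0 members in each (0.214%, 0.221% and 0.0553% of all genes). At an unadjusted p-value under 0.05 the members were Arnt for kidney against brain (10% of all genes), Egln3 for kidney against heart (11.7%), and Egln3 for heart against brain (9.08%). The Egln3 response was higher in heart than in brain by 0.85 on the log2 scale (adjusted p = 0.106 in edgeR's quasi-likelihood test, SE 0.20, range 0.0636 to 0.304 over 25 alternatives), where 5 of 5 treated hearts and 0 of 6 treated brains were above every control of their tissue. Against kidney the Egln3 difference was -0.54 (95% interval -0.96 to -0.12, adjusted p = 0.273 in the same edgeR test). With the kidney groups taken from the treatment field, a choice made after seeing the data, edgeR called 2 members for kidney against heart (2.84% of all genes), Egln3 at -1.02 (adjusted p = 0.00386) and Bhlhe40 at -0.72 (0.0261), and 0 for kidney against brain (0.793%). The 24 genes called in all for kidney against brain became 94, 51 or 62 without treated kidney 52, 53 or 54 and 15 without vehicle kidney 49. For kidney against heart the 95 genes became 180 or 148 without treated kidney 52 or 54, 59 or 61 without vehicle kidney 46 or 47, and 61 or 63 without treated heart 69 or 72. For heart against brain the 14 genes became 9 without treated brain 38 or vehicle brain 27 or 28, 7, 25, 36 or 1 without treated heart 69, 70, 71 or 72, and 31 without vehicle heart 66.

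For the other targets, no difference of responses between organs was called with groups by the sample titles. The Vegfa estimate was -0.13 (95% interval -0.47 to 0.22) between kidney and brain, -0.03 (-0.38 to 0.32) between kidney and heart and -0.10 (-0.44 to 0.25) between heart and brain. Adm gave -0.16 (-0.83 to 0.50), 0.28 (-0.38 to 0.94) and -0.44 (-1.10 to 0.21) in the same order, and the first of these was 0.27 without treated brain 34. Bhlhe40 gave 0.20 (-0.16 to 0.57), 0.11 (-0.26 to 0.49) and 0.09 (-0.27 to 0.46), the last turning to -0.06 without treated heart 69. Slc2a1 gave -0.09 (-0.37 to 0.19), 0.09 (-0.20 to 0.38) and -0.18 (-0.47 to 0.10).

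The treated libraries of each tissue were ranked on a summary of the role-list genes, where some library must be highest. Taking the median log2 level of the role-list genes relative to the vehicle mean of each gene, treated kidney 51 was at 0.22 where the other treated kidneys lay between 0.03 and 0.12, treated brain 34 was at 0.13 where the others lay between 0.02 and 0.08, and treated heart 69 was at 0.15 where the others lay between -0.02 and 0.08. These were also the highest treated libraries for Epo, Eno1, Vegfa and Egln3 in kidney and for Vegfa, Adm, Bhlhe40 and Flt1 in brain. In heart this held for all 5 targets, Plod1 and Ak4. Of these genes, Epo, Eno1, Flt1, Plod1 and Ak4 belong to the role lists and so enter the summary themselves. Other treated libraries were highest for Adm (53), Bhlhe40 (50) and Slc2a1 (55) in kidney and for Slc2a1 (38) and Epas1 (35) in brain. The labels do not say whether they came from the same mouse. Control kidneys lay between -0.00765 and 0.04 on this measure, so treated kidney 54, at 0.03, was the treated kidney that fell among them. Control brains lay between -0.03 and 0.04 and control hearts between -0.03 and 0.05, and 4 of 6 treated brains and 3 of 5 treated hearts fell among them.

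**Figure D4:**
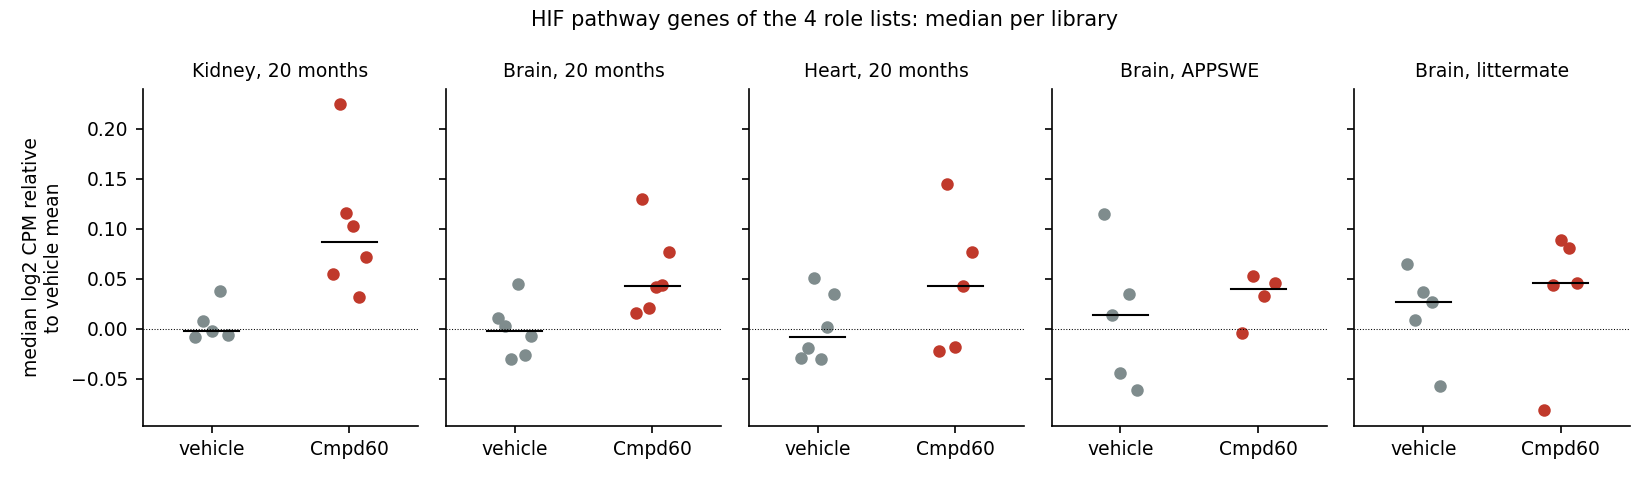
Median log2 CPM of the role-list genes in each library, relative to the mean of the vehicle libraries of the same setting, 1 point per library with a bar at the group median. The highest treated libraries are at 0.22 in kidney, 0.13 in brain and 0.15 in heart.

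Over the 34 aged libraries, with each group's mean taken out, the genes whose level followed 3 members most closely were sought among 9064 genes with at least 5 CPM in each tissue. For Hif1a they were Osbp (Pearson r 0.82, Spearman rho 0.82), Cs (0.74 and 0.78) and Rbm18 (0.73 and 0.71). Epas1 was followed by Lrp5 (0.91 and 0.85), Adarb1 (0.89 and 0.78) and Cluh (0.88 and 0.74), and Vegfa by Arhgap29 (0.64 and 0.54), Myo1c (0.61 and 0.51) and Acer2 (0.60 and 0.52). Without the 2 libraries farthest from the member's median, r was 0.76 for Osbp, 0.81 for Lrp5 and 0.53 for Arhgap29. These values are a description, picked as the highest of many, and carry no test.

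In the APPSWE cohort, no hypoxia target passed the test in either genotype. Estimates for Adm, Bhlhe40 and Vegfa were under 0 in transgenic brains, and all of their intervals included 0. Without treated library s141 the estimates were -0.00959 for Adm and 0.04 for Vegfa. The Adm estimate was above 0 with library s139 placed in the Cmpd60 group. In littermates all 10 estimates were above 0, most of them by little. Libraries of this cohort differed strongly in the number of genes detected, and edgeR's common estimate of the variation between mice was 0.729 here and 0.114 in the aged brain.

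edgeR's quasi-likelihood test called 0 of the 10 members in transgenic brains (0% of all 23194 genes called) and 0 in littermates (0%), and limma-voom (0% in both) and the DESeq2 Wald test (0.0949% and 0.0172%) called 0 members in both. At an unadjusted p-value under 0.05 there were 0 members in either genotype, where 9.46% of all genes passed in transgenic brains and 3.67% in littermates, and the groups overlapped for all 10 members (2.31% and 0.509% of all genes did not overlap). Of all genes edgeR called 0 in littermates, and it called 2 without littermate library s152 and 1 without s156. The number of genes detected ran from 15044 to 24821 per library, and 5 libraries were under 17000, namely transgenic s140, s141 and s146 and littermate s152 and s155. Without these 5, a choice made after seeing the data, the member count was again 0 in both genotypes, where few of all genes were called. Those counts of all genes are given below, under the dependence of the results on the processing.

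Among the regulators in transgenic brains, Epas1 was at 171 to 198 CPM with Cmpd60 and 140 to 192 CPM without, a log2 fold change of 0.15 (95% interval -0.06 to 0.36). Arnt gave 0.22 (-0.15 to 0.58), Hif1a 0.08 (-0.14 to 0.30), Vhl 0.05 (-0.31 to 0.41) and Egln1 -0.13 (-0.40 to 0.15). Control s140 was high for Arnt, at 41.4 CPM, and low for Vhl, and without it the estimates were 0.36 for Arnt and -0.03 for Vhl. In littermates the same genes gave 0.12 for Epas1 (-0.08 to 0.32), 0.05 for Arnt (-0.29 to 0.40), 0.04 for Hif1a (-0.17 to 0.25), 0.14 for Vhl (-0.19 to 0.48) and 0.11 for Egln1 (-0.15 to 0.37). Littermate control s155 was low for Vhl and Egln1, at 20.9 and 48.8 CPM, and without it the estimates were 0.00203 for Vhl and -0.03 for Egln1.

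Adm was at 1.07, 2.27, 2.84, 3.19 and 0.705 CPM in transgenic controls s140, s142, s144, s145 and s146, and at 0.117, 1.96, 2.02 and 2.02 CPM in treated mice s141, s143, s147 and s148. Treated library s141, with 3 counts, was the low one, and the other treated mice lay within the control range. Its log2 difference came to -0.39 (95% interval -2.31 to 1.52, adjusted p = 0.989 in edgeR's quasi-likelihood test) and -0.00959 without s141. With library s139 placed in the Cmpd60 group, the sign of this estimate turned. In littermates Adm was at 2.13, 2.60, 1.63, 2.99 and 0 CPM in controls s149, s150, s151, s154 and s155 and at 6.54, 4.53, 2.33, 3.11 and 3.39 CPM in treated mice s152, s153, s156, s157 and s158. Control s155 had no Adm count, which allows up to 0.119 CPM, and 4 of 5 treated littermates were above every control. That gave a log2 fold change of 1.09 (95% interval -0.72 to 2.90, adjusted p = 0.999 in edgeR's quasi-likelihood test), and 0.77 without s155.

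Vegfa lay between 32.4 and 55.6 CPM in treated transgenic brains and between 42.8 and 65.7 CPM in controls, a log2 fold change of -0.11 (95% interval -0.42 to 0.21) that became 0.04 without treated library s141. Littermates gave 0.00358 (-0.29 to 0.30). Bhlhe40 was at 89.9 to 102 CPM against 93.0 to 135 CPM in transgenic brains, -0.20 (-0.44 to 0.04), or -0.12 without control s146, and gave 0.10 (-0.13 to 0.33) in littermates. Slc2a1 gave 0.10 (-0.19 to 0.38) and 0.02 (-0.24 to 0.29). Egln3 gave 0.26 (-1.14 to 1.67) and 0.29 (-1.04 to 1.61), and transgenic control s140 had 0 counts of it among 55871402, which allows up to 0.0537 CPM. Without s140 the transgenic Egln3 estimate turned to -0.06, and in littermates it was 0.08 without control s154 and 0.49 without control s155.

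The genotype itself and its interaction with the compound were tested in the same fit. Between vehicle-treated transgenic and littermate brains, edgeR's quasi-likelihood test called 0 of 10 members (0.00862% of all genes), limma-voom called 0 (0.0129%), and 1 member, Egln1, had an unadjusted p-value under 0.05 (8.67% of all genes). Egln1 was 0.30 higher in transgenic mice on the log2 scale (95% interval 0.04 to 0.56, adjusted p = 0.509 in edgeR's test, range 0.445 to 0.841 over 15 alternatives), with 3 of 5 transgenic brains above every littermate, and it was 0.17 without littermate s155. The number of all genes called between these groups was 2, and it was 1 without transgenic s145 or littermate s149, s150 or s155 and 4 without littermate s151. For the interaction, edgeR called 0 members (0% of all genes), limma-voom called 0 (0%) and 0 had an unadjusted p-value under 0.05 (5.09% of all genes), while 1 gene in all was called without littermate s152 or s156. The widest gap was for Adm, whose response was -1.48 in transgenic mice minus littermates (95% interval -4.12 to 1.16), and for Bhlhe40 the gap was -0.30 (-0.63 to 0.04).

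Of 70 further pathway genes tested in this cohort, 34 were higher with Cmpd60 in transgenic brains (median -0.01, beside 0.03 over all genes) and 39 in littermates (median 0.02, beside 0.02 over all genes), and edgeR called 0 in both. The vascular and haem list had the highest median of the 4 lists, 0.31 with 8 of 12 higher in transgenic brains and 0.23 with 9 of 12 higher in littermates. Tpi1, a glycolytic isomerase gene, was at 620.2, 548, 655 and 590 CPM in treated transgenic brains and 649 to 744 CPM in controls, a log2 fold change of -0.19 (adjusted p = 0.460 in edgeR's test) with 3 of 4 below every control. Tfrc, the transferrin receptor gene for iron uptake, gave 0.29 (adjusted p = 0.465 in edgeR's test) with 2 of 4 above every control. In littermates, the clock and hypoxia repressor gene Bhlhe41 was at 98.7, 57.0, 48.1, 56.8 and 58.4 CPM in treated mice against 28.3 to 49.9 CPM, a log2 fold change of 0.59 (adjusted p = 0.999 in edgeR's test) with 4 of 5 above every control and library s152 highest, without which it was 0.38. Rbx1, a subunit of the ligase that VHL directs, gave -0.28 (adjusted p = 0.999 in edgeR's test), with 2 of 5 below every control. Choroid plexus genes, led by Ttr, summed to 575, 414, 371 and 369 CPM in treated transgenic brains against 399 to 1551 CPM in controls (5 of 6 lower), oligodendrocyte genes to 6165 against 7090.3 CPM (6 of 6 lower), and microglial genes to 205 against 182 CPM (6 of 8 higher, 2 of them without overlap between groups, against 2.31% of all genes). At an unadjusted p-value under 0.05, 3 oligodendrocyte genes were lower (50% of the list, against 9.46% of all genes). Neuron genes were higher in 5 of 7 cases, 1 at that level, and 2 did not overlap between groups. Astrocyte genes were higher in 3 of 6 cases, 2 at that level, and 1 did not overlap. Endothelial genes summed to 152 against 146.3 CPM (7 of 10 higher) and mural genes to 191 against 169 CPM (6 of 9 higher). Reads outside any gene made up 5.11% to 6.46% of reads in the treated transgenic brains and 3.99% to 4.95% in their controls, with no overlap, and genes detected ran from 16402 to 23402 against 15555 to 20277. In littermates endothelial genes summed to 163 against 148.5 CPM (8 of 10 higher), mural genes to 193 against 190.5 CPM (5 of 9 higher), red cell genes to 236 against 127 CPM (2 of 3 higher), neuron genes to 6870 against 6345 CPM (7 of 7 higher) and astrocyte genes to 3852 against 3403 CPM (6 of 6 higher), with 2 neuron and 2 astrocyte genes at an unadjusted p-value under 0.05 (3.67% of all genes). No gene of these lists was called. The part of these values in the pathway genes was not tested.

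HIF binds a short core that can be read as ACGTG or GCGTG, and both were searched on either strand in RefSeq promoters of build GRCm38.p6, each 300 bases long with 250 before and 50 after the start of the gene. ACGTG occurs in 19.6% of all 32851 promoters, GCGTG in 32.4% and at least 1 of them in 43.8%. Promoters were matched for 8 of the 10 members, and 7 of these 8 held at least 1 of the motifs in a promoter, while the Vhl window held none of these letters. Counted by promoter, as the shares over all promoters are, 7 of 9 member promoters held a motif. Hif1a had 3 matches, Egln1, Slc2a1, Adm and 1 of 2 Vegfa windows had 2, and Arnt and Egln3 had 1. Epas1 and Bhlhe40 are not in the table. The windows of Egln3, called in heart, of Adm, separated in kidney, and of Epo, highest in treated kidney 51, are printed 5′ to 3′ on the strand of the gene, with the motif on either strand in capitals (CACGT and CACGC are ACGTG and GCGTG on the other strand). They are Egln3 at chr12:54203825-54204124 on the minus strand, Adm at chr7:110627407-110627706 on the plus strand and Epo at chr5:137485767-137486066 on the minus strand. A match describes letters in a window and shows no binding.
Egln3: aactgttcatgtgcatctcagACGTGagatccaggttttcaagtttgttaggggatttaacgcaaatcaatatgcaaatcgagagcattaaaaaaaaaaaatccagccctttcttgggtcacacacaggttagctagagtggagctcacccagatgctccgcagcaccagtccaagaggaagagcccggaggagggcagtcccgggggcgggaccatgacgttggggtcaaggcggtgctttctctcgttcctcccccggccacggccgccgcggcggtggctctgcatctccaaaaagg
Adm: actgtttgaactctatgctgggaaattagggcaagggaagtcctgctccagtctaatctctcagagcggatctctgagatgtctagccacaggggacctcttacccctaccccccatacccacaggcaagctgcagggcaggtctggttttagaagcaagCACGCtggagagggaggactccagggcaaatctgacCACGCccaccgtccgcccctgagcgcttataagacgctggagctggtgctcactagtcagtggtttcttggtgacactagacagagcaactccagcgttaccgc
Epo: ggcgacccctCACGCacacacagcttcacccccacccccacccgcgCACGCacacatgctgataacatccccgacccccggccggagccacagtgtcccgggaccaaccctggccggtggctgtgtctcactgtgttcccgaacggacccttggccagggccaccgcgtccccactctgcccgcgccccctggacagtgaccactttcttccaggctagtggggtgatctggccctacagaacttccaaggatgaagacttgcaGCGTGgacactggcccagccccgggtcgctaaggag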

How the data were processed

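The counts per gene were deposited by the authors and were not recounted here. The submitters' processing notes credit FastQC, Trimmomatic 0.32, HISAT2 2.1.0 and HTSeq 0.11.0, and the genome build of counting is not given in the sources used here. The 5 summary lines of each library, 15.4% to 22.1% of reads, were left out. Genes were tested in edgeR 4.0.16 with the quasi-likelihood test under R 4.3.3, after TMM scaling and a filter that kept genes with counts above 2 in 3 or more libraries, with Benjamini-Hochberg adjustment and a threshold of 0.05. Each aged tissue had its own fit, the 4 groups of the APPSWE cohort shared 1 fit, and tissues were compared in a fit of all 34 aged libraries. Names were matched for 32651 genes.

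Groups follow sample titles and source names. The kidney treatment field states the opposite of the titles, and the titles were followed. For the APPSWE cohort the growth protocol gives 20 months and the series design 6 to 7, and the design was followed. Library s139 was left out because its label says vehicle while its heading in the study table says compound.

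All 10 members are described in every comparison. From 4 lists of further pathway genes by role (HIF subunits and regulators, glucose and glycolysis, vascular and haem, stress and matrix), the genes with an adjusted p-value under 0.05 are named, at most 8 by p-value, or the 2 with the smallest p-values where fewer than 2 pass, with a mean of at least 1 CPM. For Hif1a, Epas1 and Vegfa the 3 most alike genes are named among genes with at least 5 CPM in all 3 tissues. Marker lists were endothelial, mural, red cell, macrophage or microglia, proximal tubule, thick ascending limb, podocyte, collecting duct, cardiomyocyte, neuron, astrocyte, oligodendrocyte, choroid plexus and body clock genes. The members and lists were chosen with earlier results of these data known.

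Alternatives were limma 3.58.1 voom, the DESeq2 1.42.0 Wald test, DESeq2's size factors, no filter or a stricter filter, thinned counts, joint or separate fits, a covariate for genes detected, library s139 in either group, kidney groups from the treatment field, and leaving out each library. The code was tested on simulated data with known differences. The p-values weigh each difference against the spread between libraries, some of which share a mouse in the fits over several tissues. The floors given for counts of 0 cover counting error only.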

Additional observations from a re-analysis of the deposited data

Results flagged for a closer look

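A library stood apart from its group for 16 of the 100 sets of 1 member in 1 group, where chance alone gives about 1 in 20. Each value is the share of the group's range, on the log2 scale, that lies between the library and its nearest neighbour.

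In brain, Vegfa stood apart in vehicle library 29 (0.745, at 94.8 CPM where the others had 66.02 to 72.4) and in treated library 34 (0.747, at 147 CPM where the others had 77.0 to 90.8). In treated heart 69, Arnt (0.729, at 63.8 CPM against 56.0 to 58.0) and Egln3 (0.753, at 171 CPM against 79.1 to 95.7) were high.

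In transgenic vehicle brains, library s140 was high for Arnt (0.835, at 41.4 CPM), low for Vhl (0.724, at 29.7 CPM) and without counts of Egln3 (0.894). In treated transgenic brains, library s143 was low for Egln1 (0.907, at 84.9 CPM) and Slc2a1 (0.863, at 88.9 CPM), and library s141 was low for Vegfa (0.841, at 32.4 CPM) and Adm (0.988, at 0.117 CPM). Littermate vehicle library s155 was high for Arnt (0.790, at 41.3 CPM), low for Vhl (0.787, at 20.9 CPM) and Egln1 (0.848, at 48.8 CPM) and without counts of Adm (0.849). Treated littermate library s157 was high for Slc2a1 (0.759, at 124 CPM).

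Library s139, left out of every comparison, was above all transgenic vehicle libraries for Vhl (46.2 CPM against 29.6 to 42.1) and for Adm (6.62 CPM against 0.705 to 3.18). It was also above all treated transgenic libraries for Vhl (35.7 to 40.9 CPM) and for Adm (0.117 to 2.02 CPM).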

How the results depend on the processing

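No paired analysis was possible because each library has a number of its own and no label joins libraries of the same mouse. The alternatives that left out each library for tissue levels, response differences, genotype and interaction, that left out the 5 APPSWE cohort libraries with under 17000 genes detected, that used DESeq2's size factors for genotype and interaction, or that took the kidney groups from the treatment field, were chosen after seeing the data. Values are log2 fold changes or counts, and where a result moved the cause was not tested.

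The sign of a difference turned in these cases. In kidney, Epas1 was -0.011 with limma-voom, -0.000465 with no filter and -0.00213 with thinned counts, and in brain Hif1a was 0.015 in the fit of 34 libraries. In transgenic brains, Adm was 0.34 with library s139 as Cmpd60, Vhl was -0.055 with genes detected as a covariate and -0.00321 with library s139 as vehicle, and without the 5 libraries Egln3 was -0.10, Vegfa 0.11 and Vhl -0.056. In littermates, Vegfa was -0.0029 with the DESeq2 Wald test, -0.00296 with its size factors and -0.010 with the covariate, and Egln1 was -0.042 without the 5 libraries. Between genotypes, Epas1 was 0.022 with library s139 as vehicle, 0.016 with limma-voom and 0.00706 without the 5 libraries, where Egln3 was 0.14 and Slc2a1 -0.080. For the interaction, Egln3 was 0.015 with library s139 as vehicle and 2.59 with limma-voom, Slc2a1 -0.014 with limma-voom, and without the 5 libraries Egln1 was 0.00499 and Vegfa 0.070. Between tissues, DESeq2's size factors gave Bhlhe40 -0.00930 and Egln1 -0.11 for kidney against brain and Bhlhe40 -0.070 for heart against brain, and Egln1 for kidney against brain was -0.00521 with 17 vehicle libraries only. The kidney minus brain response of Adm was 0.058 with limma-voom. With the kidney groups taken from the treatment field, kidney had Adm -0.54, Arnt 0.020, Bhlhe40 -0.41, Egln1 0.023, Egln3 -0.24, Eno1 -0.51, Epas1 -0.00134, Epo -4.77, Hif1a 0.048, Slc2a1 -0.15, Vegfa -0.25 and Vhl 0.14, kidney minus brain had Bhlhe40 -0.62, Egln1 0.025, Egln3 -0.18, Hif1a 0.031 and Vhl 0.17, and kidney minus heart had Adm -0.81, Bhlhe40 -0.72, Egln1 0.027, Slc2a1 -0.21 and Vhl 0.046.

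Leaving out each library in turn crossed 0 for these genes, given as lowest to highest. Kidney had Arnt -0.040 to 0.010, Egln1 -0.045 to 0.00294 and Epas1 -0.059 to 0.095, brain had Hif1a -0.032 to 0.0000879, and heart had Epas1 -0.00538 to 0.059 and Slc2a1 -0.044 to 0.11. Transgenic brains had Egln3 -0.061 to 0.50, Vegfa -0.19 to 0.039 and Vhl -0.026 to 0.092, and littermates had Arnt -0.062 to 0.14, Egln1 -0.029 to 0.16, Slc2a1 -0.060 to 0.059 and Vegfa -0.022 to 0.046. Genotype had Adm -0.22 to 0.33, Epas1 -0.063 to 0.054, Slc2a1 -0.14 to 0.095, Vegfa -0.12 to 0.047 and Vhl -0.068 to 0.15. The interaction had Egln3 -0.35 to 0.22, Epas1 -0.024 to 0.091, Hif1a -0.033 to 0.13, Slc2a1 -0.000734 to 0.23, Vegfa -0.19 to 0.036 and Vhl -0.17 to 0.048. Tissue levels had Egln1 -0.000478 to 0.046 for kidney against brain and Bhlhe40 -0.061 to 0.054 for heart against brain. Response differences had, for kidney minus brain, Adm -0.30 to 0.27, Egln1 -0.042 to 0.00528 and Vegfa -0.21 to 0.045, for kidney minus heart, Egln1 -0.040 to 0.015, Epas1 -0.089 to 0.059 and Vegfa -0.082 to 0.025, and for heart minus brain, Bhlhe40 -0.062 to 0.17, Egln1 -0.034 to 0.015 and Vegfa -0.18 to 0.075.

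The number of genes called also moved. Kidney had 552 in the fit of 34 libraries, 429 with DESeq2, 94 with no filter and 20 to 131 leaving out each library, with 1 member called by DESeq2. Brain had 0 in the fit of 34 libraries, 429 with DESeq2, 2 with limma-voom, 102 with no filter, 12 with thinned counts and 1 to 372 leaving out each library. Heart had 746 with DESeq2 and 36 to 247 leaving out each library, and its members called were 2 with DESeq2 and 0 to 1 leaving out each library. Transgenic brains had 22 with DESeq2, 8 with no filter, 1 with only the 2 groups compared and 3 without the 5 libraries. Littermates had 4 with DESeq2, 2 with no filter, 1 without the 5 libraries and 0 to 2 leaving out each library. Genotype had 7 without the 5 libraries and 1 to 4 leaving out each library, and the interaction 0 to 1. Response differences had 58 with limma-voom and 15 to 94 leaving out each library for kidney minus brain, 60 and 59 to 180 for kidney minus heart, and 1 to 36 for heart minus brain. With the kidney groups from the treatment field they had 215 for kidney minus brain and 771, with 2 members, for kidney minus heart.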

Other observations

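In library s139, whose treatment its sources dispute, Arnt was at 23.5 CPM, below all transgenic vehicle libraries (25.9 to 41.4) and all treated ones (30.4 to 39.9). Hif1a was at 97.6 CPM, Epas1 at 186, Egln1 at 102, Egln3 at 6.03, Vegfa at 52.3, Slc2a1 at 106 and Bhlhe40 at 95.4 CPM.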
